A study of Mus musculus with 2 samples.

Results

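Cells store fatty acids as triglycerides and sterol esters in lipid droplets, organelles with a neutral core and a coat of perilipin proteins. Cytosolic lipolysis takes triglycerides apart in steps, through adipose triglyceride lipase, hormone-sensitive lipase and monoglyceride lipase, and the stored lipid can also be hydrolysed in lysosomes at acid pH. Lipoprotein lipase works outside the cell on circulating lipoproteins, and fatty acid amide hydrolase breaks down endocannabinoids and related lipid amides. Hematopoietic stem cells (HSC) are known to draw on fatty acid oxidation, and lipid droplet turnover has been linked to their maintenance.

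The 9 genes described here were listed by name: the droplet coat proteins Plin2 and Plin3, the cytosolic lipolysis genes Pnpla2, Abhd5, Lipe and Mgll, the lysosomal lipase Lipa, the lipoprotein lipase Lpl and the amide hydrolase Faah. All 9 had a row in both deposited tables, which hold 14366 genes. The study compared 2 cultures of wildtype C57/B6 mouse HSC with a droplet method that counts 3′ ends of transcripts in single cells. Bone marrow of 8 mice aged 6 to 8 weeks was pooled, and cells were sorted as Lin−Sca-1+c-Kit+CD150+CD48−. Whether both cultures came from the same pool of mice is not stated, so animals and DFO cannot be told apart if the pools differed. Both cultures lasted 48 h in the presence of 2 cytokines, thrombopoietin at 50 ng/ml and stem cell factor at 100 ng/ml. The vehicle group received sterile water and the DFO group received 10 µM deferoxamine, an iron chelator. From each culture 20000 live cells were loaded. Each group is 1 library of pooled animals, so the differences below were not checked in replicates, and p-values are absent.

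The tables held 8708 vehicle cells and 9852 DFO cells, with 260938938 and 284326017 molecules. The median cell had 27805.5 molecules in the vehicle library and 27114 in the DFO library, and the libraries shared 24 cell barcodes. The median mitochondrial share was 3.88% in vehicle cells and 4.395% in DFO cells. Levels are given in CPM, molecule counts scaled to the same total of 1000000 in each library. All 21 HSC markers were in the tables, with a summed level of 2144 CPM in vehicle and 2273 CPM in DFO. Ifitm1 made up 1364 and 1455 CPM of this. Of the 17 averaging at least 5 CPM, 6 were lower in DFO, among them Pdzk1ip1 (-0.43 on the log2 scale) and Slamf1 (-0.27). Ly6a was higher (0.40). The sum of the 19 megakaryocyte markers in the tables was 2507 CPM in vehicle against 1378 CPM in DFO, and 15 of the 15 averaging at least 5 CPM were lower in DFO. The labelled HSC cultures therefore held transcripts of megakaryocyte markers as well, and these sums do not tell which cells they came from. The 13 erythroid markers in the tables summed to 945 and 908 CPM, most of it from Hbb-bt and Car2, and 5 of the 6 averaging at least 5 CPM were lower in DFO, among them Gata1 (-0.65 on the log2 scale) and Aqp1 (-0.52). The 11 genes listed as neutrophil and monocyte markers summed to 574 and 443 CPM. Of this, 306 and 195 CPM came from Mt1, a metallothionein gene that is not specific to these cells. In that list 5 of 5 averaging at least 5 CPM were lower, Mt1 among them. Elane had 53 molecules in vehicle and 451 in DFO, and S100a8 had 0 and 139. Macrophage and dendritic markers, 5 in the tables, summed to 36.7 and 27.6 CPM, nearly all from H2-Ab1 (34.4 and 25.6 CPM), and mast cell and basophil markers, 6 in the tables, to 10.4 and 6.83 CPM. Stromal, endothelial and adipocyte markers, 7 in the tables, summed to 55.8 CPM in vehicle and 54.3 CPM in DFO. The adipocyte marker Fabp4 was at 0.0268 and 0.0668 CPM.

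Promoter sequences are shown for 6 members that ran in opposite directions between the stem-like and the megakaryocyte-like cells described further on. In CPM, Plin2, Plin3, Pnpla2 and Lipa were lower in the megakaryocyte-like cells, and Abhd5 and Mgll were higher. RefSeq promoters (GRCm38.p6, the build that corresponds to mm10) matched 8 of the 9 members through 10 start sites, and Lpl had no entry. The windows are the 250 bases upstream of a start, written 5′ to 3′ on the gene's strand: chr4:86670060-86670309 (- strand) for Plin2, chr17:56290512-56290761 (- strand) for Plin3, chr7:141454938-141455187 (+ strand) for Pnpla2, chr19:34527475-34527724 (- strand) for Lipa, chr9:122351366-122351615 (+ strand) for Abhd5, and chr6:88724162-88724411 (+ strand) for the upstream Mgll start. Capitals mark any match to 5 motifs on either strand: the one bound by GATA factors, spelled AGATAA, the one bound by ETS factors, spelled CCGGAA, the core of hypoxia response elements, spelled ACGTG, the box named after its letters CCAAT, and the GC box, spelled GGGCGG. The Plin3 window lies inside the GENCODE gene model given below for Plin3, which starts further upstream.
Plin2: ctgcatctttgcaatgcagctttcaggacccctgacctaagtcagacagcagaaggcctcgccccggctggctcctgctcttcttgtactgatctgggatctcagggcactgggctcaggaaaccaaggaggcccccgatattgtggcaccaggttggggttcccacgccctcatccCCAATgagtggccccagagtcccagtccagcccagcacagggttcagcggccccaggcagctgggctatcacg
Plin3: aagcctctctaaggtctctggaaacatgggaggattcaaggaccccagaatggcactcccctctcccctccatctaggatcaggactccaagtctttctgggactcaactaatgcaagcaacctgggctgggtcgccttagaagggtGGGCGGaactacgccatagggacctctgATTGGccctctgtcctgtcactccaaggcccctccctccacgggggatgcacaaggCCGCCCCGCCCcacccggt
Pnpla2: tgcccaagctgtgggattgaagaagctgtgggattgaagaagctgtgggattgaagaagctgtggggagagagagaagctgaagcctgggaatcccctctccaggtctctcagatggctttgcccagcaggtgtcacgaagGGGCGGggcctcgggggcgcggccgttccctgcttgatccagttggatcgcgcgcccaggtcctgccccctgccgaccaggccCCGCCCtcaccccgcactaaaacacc
Lipa: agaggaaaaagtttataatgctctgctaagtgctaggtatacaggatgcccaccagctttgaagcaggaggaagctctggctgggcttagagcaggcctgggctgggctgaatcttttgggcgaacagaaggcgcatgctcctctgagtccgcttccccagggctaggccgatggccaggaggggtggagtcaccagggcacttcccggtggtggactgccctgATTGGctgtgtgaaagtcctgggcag
Abhd5: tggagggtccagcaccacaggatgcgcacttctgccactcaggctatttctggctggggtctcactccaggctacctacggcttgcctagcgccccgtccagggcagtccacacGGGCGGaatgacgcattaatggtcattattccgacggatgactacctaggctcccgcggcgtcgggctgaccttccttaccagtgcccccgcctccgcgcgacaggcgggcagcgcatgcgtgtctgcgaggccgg
Mgll: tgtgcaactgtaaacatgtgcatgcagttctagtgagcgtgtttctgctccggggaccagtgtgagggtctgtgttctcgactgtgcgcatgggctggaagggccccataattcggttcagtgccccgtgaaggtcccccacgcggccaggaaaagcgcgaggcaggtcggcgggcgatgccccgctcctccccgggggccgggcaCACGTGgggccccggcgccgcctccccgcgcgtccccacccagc
The CCAAT motif was in the windows of Plin2, Plin3 and Lipa, which made 3 of 10 member windows against 33.8% of all 32851 promoter windows of the same length. The GC box was in 6 of 10, those of Plin3, Pnpla2, Abhd5 and Faah and 1 window each of Lipe and Mgll, against 32.7% of all windows. The hypoxia core was in 3 of 10, both Mgll windows and 1 Lipe window, against 16.6% of all. In the upstream Mgll window and the Lipe window it lies inside CACGTG, a palindrome that matches on both strands. The ETS motif was in 1 of 10, a Lipe window, against 12.03% of all, and the GATA motif in 0 of 10 against 9.99%. The member windows had a G+C content of 55.6% to 74.8%, and the median over all windows was 52.4%. A match is a description of the letters only, and the 6 windows share no motif of the 5.

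Across all cells, 8 of the 9 members had nearly the same level in both libraries, and Lpl was lower in the DFO library. A difference is given as log2((DFO CPM + 1)/(vehicle CPM + 1)). A gene was counted as past the fold at an absolute difference of 0.25, among the 8886 genes whose mean over both libraries was at least 5 CPM. Of the 9 members 7 had that level, all but Mgll and Faah. Of these 7, 1 was past the fold and lower in DFO (Lpl), where 2.58% of all 8886 genes were, and 0 were past the fold and higher, where 1.4% of all genes were. The median difference of the 7 was -0.021, and that of all 8886 genes was 0.019 with an SD across genes of 0.13. The plot of member levels by library shows the same: the paired points of 8 members lie close together and those of Lpl are apart.

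**Figure D1:**
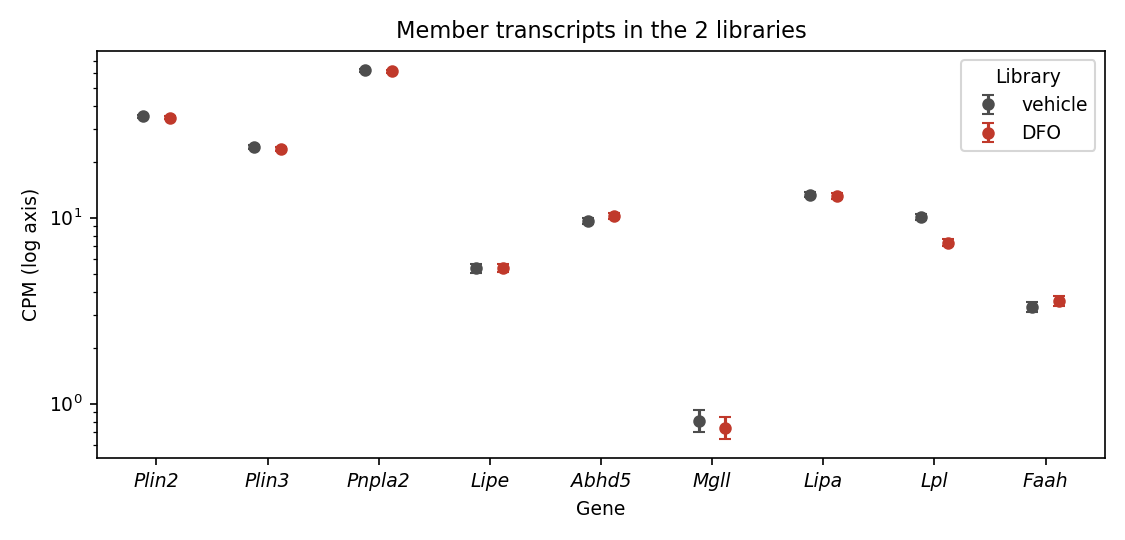
Level of each member in the vehicle library (grey) and the DFO library (red), in CPM on a log axis, with exact 95% Poisson intervals for counting error. Lpl is at 10.0 CPM in vehicle and at 7.35 CPM in DFO with intervals that do not overlap, and the intervals of the other members overlap.

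Plin2 encodes perilipin 2, the coat protein found on droplets of most cell types, which is stabilised by stored lipid. Plin2 (chromosome 4, 86648386 to 86670060, minus strand, GRCm38) was at 35.2 CPM in vehicle, with an exact 95% Poisson interval of 34.4 to 35.9, and at 34.6 CPM (33.9 to 35.3) in DFO. These intervals, like all those below, cover counting error only and leave out variation between cells, cultures and library preparations. Level intervals that overlap do not show that levels are equal. The 2 levels of Plin2 overlap, and the difference was -0.023. Perilipin 3, encoded by Plin3 (chromosome 17, 56277476 to 56292873, minus strand), coats small and newly formed droplets. Plin3 was at 24.0 CPM (23.4 to 24.6) in vehicle and 23.5 CPM (22.9 to 24.0) in DFO, a difference of -0.032. Neither coat transcript separated the libraries.

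Pnpla2 encodes adipose triglyceride lipase, which takes the first step of triglyceride breakdown. Pnpla2 (chromosome 7, 141455198 to 141460743, plus strand) was at 61.9 CPM (61.0 to 62.9) in vehicle and 61.1 CPM (60.2 to 62.1) in DFO, a difference of -0.018. Its coactivator, the protein CGI-58, is encoded by Abhd5 (chromosome 9, 122351608 to 122381524, plus strand). Abhd5 was at 9.63 CPM (9.26 to 10.0) in vehicle and 10.2 CPM (9.81 to 10.6) in DFO, a difference of 0.072. The enzyme and its coactivator thus lay on opposite sides of 0, each by less than the SD across all genes, and the level intervals of each overlapped. The counting interval of the log2 ratio included 0 for Pnpla2 (-0.049 to 0.013) and lay just above 0 for Abhd5 (0.0022 to 0.16).

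The next enzymes of the cytosolic pathway were at lower counts. Lipe (chromosome 7, 25379527 to 25398710, minus strand), which encodes hormone-sensitive lipase, was at 5.33 CPM in vehicle and at 5.38 CPM in DFO, a difference of 0.0098. Mgll (chromosome 6, 88724412 to 88828360, plus strand), which encodes monoglyceride lipase, had 210 molecules in each library, or 0.805 CPM (0.700 to 0.921) and 0.739 CPM (0.642 to 0.846). The counting interval of the Mgll ratio was wide, -0.41 to 0.16 on the log2 scale. GENCODE M21 places other genes over some of these loci, 4732471J01Rik on the opposite strand of Lipe, A730085K08Rik on that of Abhd5, and Gm44005, Gm43999 and Gm44001 on the strand of Mgll. Whether reads of such neighbours entered the Mgll count was not tested.

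Lipa encodes lysosomal acid lipase, which hydrolyses triglycerides and cholesteryl esters delivered to lysosomes. Lipa (chromosome 19, 34492318 to 34527474, minus strand) was at 13.3 CPM (12.8 to 13.7) in vehicle and 13.1 CPM (12.7 to 13.5) in DFO, a difference of -0.021. Faah (chromosome 4, 115967145 to 116017926, minus strand), which encodes fatty acid amide hydrolase, was at 3.31 CPM (3.09 to 3.54) in vehicle and 3.58 CPM (3.36 to 3.81) in DFO, a difference of 0.089. The intervals of both genes overlap.

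Lpl encodes lipoprotein lipase, a secreted enzyme that releases fatty acids from lipoprotein triglycerides at the endothelial surface and is made by adipocytes, muscle cells and macrophages. Lpl (chromosome 8, 68880491 to 68907448, plus strand) had 2619 molecules in vehicle and 2089 in DFO. That is 10.0 CPM (9.66 to 10.4) in vehicle and 7.35 CPM (7.04 to 7.67) in DFO. The intervals of Lpl do not overlap, and it was the only member for which that held over all cells. The share of all genes with such intervals was not counted. Small differences can also separate intervals at high counts, as for the lipid genes Bscl2 (-0.046) and Npc2 (-0.040). Markers of macrophages, mast cells and megakaryocytes were lower in DFO as well, by the sums given above, and their part in the Lpl value was not tested. The difference in Lpl was -0.40, and the log2 ratio without the added 1 CPM was -0.45, with a counting interval of -0.53 to -0.37. Of the 8886 genes, 95 had a lower difference than Lpl. In the plot of difference against level, the other 6 members at or above that minimum lie within the main band of genes.

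**Figure D2:**
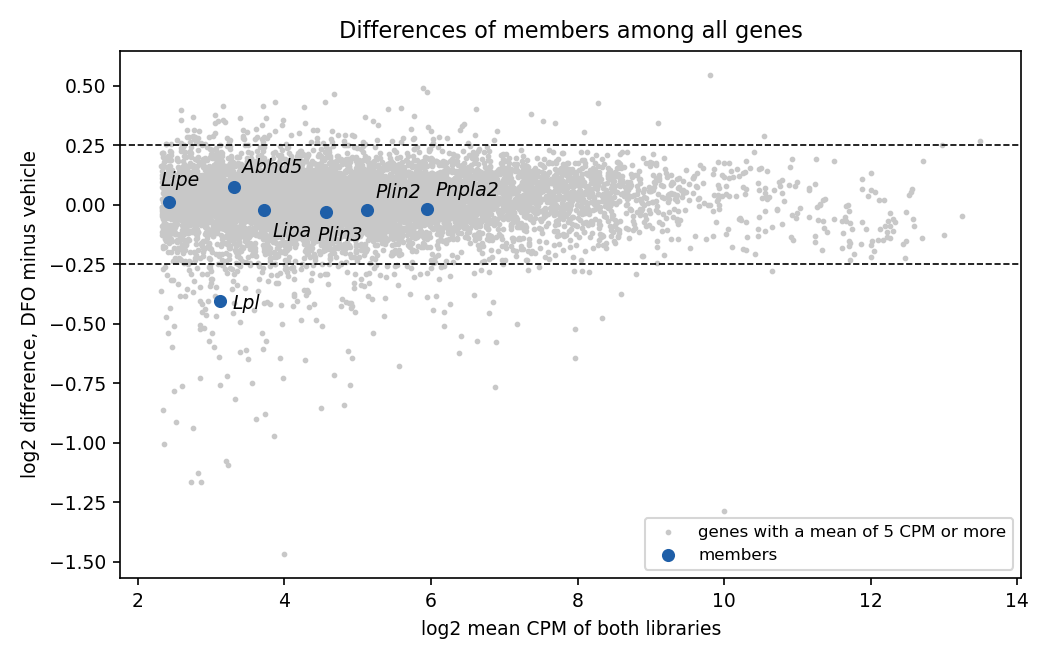
Difference between the libraries (log2, DFO minus vehicle) against the log2 mean CPM for 8886 genes, with members in blue and dashed lines at 0.25 and -0.25. Lpl lies below the lower line at -0.40, and the other 6 members plotted lie between -0.032 and 0.072.

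The fewer Lpl molecules in DFO went with fewer cells in which Lpl was found. After each cell was thinned to 10000 molecules, which left out 351 vehicle and 433 DFO cells, Lpl was found in 7.89% of vehicle cells (exact 95% Clopper-Pearson interval 7.32 to 8.48) and in 5.83% of DFO cells (5.36 to 6.32). Unthinned, the shares of cells with Lpl were 16.7% and 12.6%. The mean number of Lpl molecules in a thinned cell that had any was 1.25 in vehicle and 1.23 in DFO. The share of cells with Lpl was thus lower. Thinned counts are so low that the number per positive cell could hardly differ. That number therefore does not tell whether positive cells held less Lpl. Unthinned, it was 1.80 in vehicle and 1.68 in DFO. Lpl also had the most uneven spread over cells among the members, with a variance over mean of 1.40 in vehicle and 1.37 in DFO. The other 8 members were between 0.997 and 1.14 in vehicle and between 0.995 and 1.07 in DFO.

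The other members showed no such gap in the thinned cells. Plin2 was found in 30.05% of vehicle and 29.7% of DFO cells, Plin3 in 21.1% and 21.7%, and Pnpla2 in 46.1% and 46.8%. Lipa was found in 12.97% and 12.8%, Abhd5 in 8.998% and 9.68%, and Lipe in 5.67% and 5.24%. Faah was found in 3.24% and 3.84%, and Mgll in 0.670% and 0.807%. No cell type in these cultures is known to lack these transcripts, so the share that free RNA gives was not measured.

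To place the members along the lineages, cells of both libraries were clustered on genes that included neither the members nor the other lipid genes. Of the 6 clusters, cluster 1 was HSC-like, cluster 2 megakaryocyte-like and cluster 3 erythroid-like by marker genes, and clusters 0, 4 and 5 stayed unnamed. The leading genes of cluster 1 included only 1 HSC marker, Sult1a1, and also the immune genes Ltb, Ccl4, Ctss and Ccl9, so its name rests on the mean of its 18 detected markers. That mean was a log2 fold of 0.38 against other cells, close to the 0.36 of the erythroid markers, of which 4 were detected. Cluster 2 was led by Serpinb2, Cavin2, Tesc, Serpine2 and Pf4. Cluster 3 was led by Klf1 and Aqp1, and its leading genes included Gzmb, a mast cell or basophil marker, and Siglecf, an eosinophil marker. The leading genes of cluster 3 held 3 erythroid and 0 megakaryocyte markers. Its mean log2 fold was 0.93 for 7 detected erythroid markers and 0.78 for 10 detected megakaryocyte markers. The name erythroid-like therefore does not mean that megakaryocyte transcripts were low in it. No cluster was named erythroid-like in a coarser clustering or with another seed. Cluster 0 was led by genes of cell division such as Kif23, Cep55 and Ect2, cluster 4 by Gna14 and Il1rl1. Cluster 5 held shallow cells, with a median of 6979 molecules and 6.83% mitochondrial transcripts. Cells are not replicates, so the levels by cluster are descriptions with counting intervals.

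**Figure D3:**
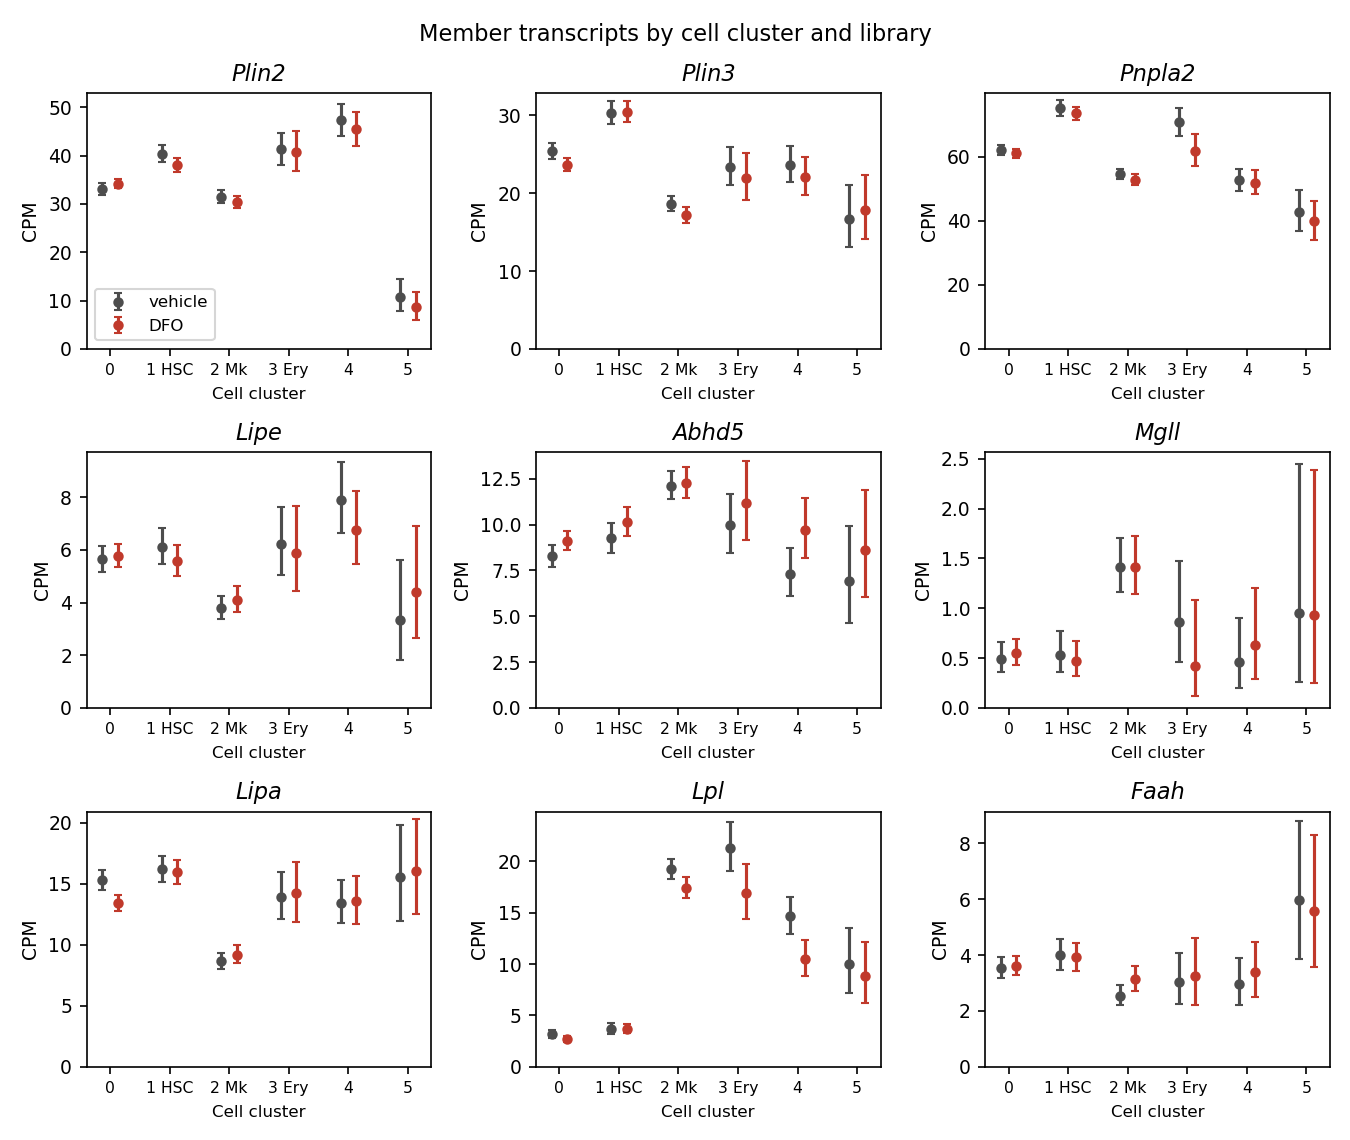
Level of each member in CPM (linear axes from 0) in 6 cell clusters of the vehicle (grey) and DFO (red) libraries, with exact 95% Poisson intervals. HSC, Mk and Ery mark the HSC-like, megakaryocyte-like and erythroid-like clusters. Lpl is between 2.73 and 3.71 CPM in clusters 0 and 1 and between 16.9 and 21.3 CPM in clusters 2 and 3, and Plin2 is lowest in cluster 5.

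Lpl was the member with the widest range over clusters, 6.68-fold between the highest and the lowest in vehicle and 6.37-fold in DFO. It was at 21.3 CPM in the erythroid-like cluster of the vehicle library, its highest there, and 16.9 CPM in that of the DFO library. The erythroid-like cluster also held megakaryocyte transcripts. Megakaryocyte markers summed to 3204 CPM in vehicle and 1945 CPM in DFO there, against 802 and 692 CPM in the HSC-like cluster. In the megakaryocyte-like cluster they summed to 5729 and 3388 CPM. The megakaryocyte-like cluster, highest in the DFO library, was at 19.2 CPM (18.3 to 20.2) in vehicle and 17.4 CPM (16.4 to 18.5) in DFO. These 2 clusters did not differ beyond their counting intervals in either library. Cluster 4 came next with 14.6 and 10.5 CPM, then the shallow cluster 5 with 10.0 and 8.84 CPM. The HSC-like cluster had 3.70 CPM in vehicle and nearly the same, 3.71 CPM, in DFO, and cluster 0 was lowest at 3.19 and 2.73 CPM. In both libraries Lpl was lower in clusters 0 and 1 than in the other 4 clusters.

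The megakaryocyte-like cluster held 57.6% of all Lpl molecules in vehicle, with 23.2% of the cells and 30.1% of the molecules of all genes. In DFO it held 55.5% of Lpl, with 19.5% of the cells and 23.4% of all molecules. In thinned cells Lpl was found in 16.7% of megakaryocyte-like vehicle cells and 15.3% of DFO cells, and in 2.65% and 2.33% of HSC-like cells. Against Pf4, the platelet factor gene that marks the megakaryocyte line, Lpl stood at 5.03 molecules per 1000 of Pf4 in the megakaryocyte-like cluster of vehicle and 18.5 in the HSC-like cluster. In DFO these ratios were 9.07 and 29.2. The ratio of Lpl to Pf4 was therefore not the same across clusters. Within the megakaryocyte-like cluster Pf4 was at 3821 CPM in vehicle cells and 1922 CPM in DFO cells, beside 19.2 and 17.4 CPM for Lpl.

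Within clusters, the difference in Lpl between the libraries was smaller than over all cells in 5 of 6. It was -0.13 in the megakaryocyte-like cluster, -0.32 in the erythroid-like, -0.45 in cluster 4, -0.16 in cluster 5, -0.17 in cluster 0 and 0.0027 in the HSC-like cluster. The level intervals were apart in cluster 4 alone. The counting interval of the ratio lay below 0 in the megakaryocyte-like (-0.25 to -0.030) and erythroid-like (-0.61 to -0.054) clusters as well. It included 0 in cluster 0, cluster 5 and the HSC-like cluster. In this clustering, though not for each cluster of the finer one below, the named clusters rich in Lpl and cluster 4 made up a smaller part of the DFO library. Of vehicle and DFO cells, 23.2% and 19.5% were megakaryocyte-like, 8.72% and 4.86% erythroid-like, and 6.27% and 4.53% in cluster 4. With the clusters weighted to the same shares in both libraries, the difference in Lpl was -0.20, which is no longer past the fold. The leading genes of these clusters, Pf4 among them, themselves differed between the libraries, so the cluster shares are given as values beside Lpl and not as a result, and makeup and level per cell cannot be told apart from these alone. With all megakaryocyte-like cells left out, the difference in Lpl was -0.43.

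A finer clustering (Leiden resolution 1.0) gave 14 clusters, and Lpl was lower in DFO in 14 of 14, with level intervals apart in 1, a megakaryocyte-like cluster at 17.7 CPM in vehicle and at 13.5 CPM in DFO. The values of Lpl there ranged from 1.43 to 25.5 CPM in vehicle and from 1.04 to 19.9 CPM in DFO. Its highest level there was in an erythroid-like cluster in both libraries. That cluster had a mean log2 fold of 0.98 for erythroid and 0.83 for megakaryocyte markers. It made up 6.81% of vehicle and 3.30% of DFO cells. Another erythroid-like cluster there had Lpl first among its leading genes, with means of 0.42 for erythroid and -0.015 for megakaryocyte markers. That one made up a larger part of the DFO library, 8.99% of cells against 7.29% in vehicle. The labels do not give the sex of the mice, and both libraries held cells of both sexes by transcripts. In female cells Lpl was at 10.2 CPM in vehicle and at 7.52 CPM in DFO, a difference of -0.39. In male cells it was at 10.1 CPM and 6.65 CPM, a difference of -0.53. Lpl was lower in DFO in cells of both sexes, and whether the 2 differences differ was not tested.

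**Figure D4:**
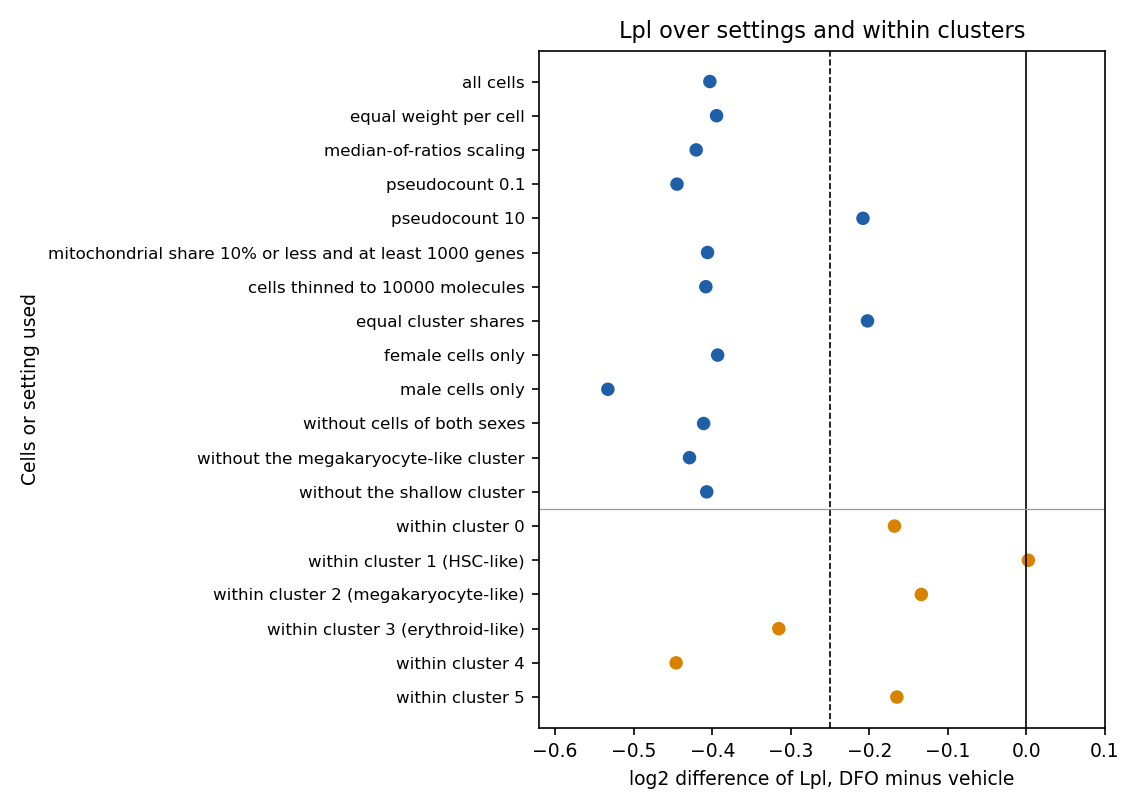
Difference in Lpl between the libraries (log2, DFO minus vehicle) for all cells and under alternative settings (blue), and within each of 6 clusters (orange), with a dashed line at -0.25. The settings range from -0.53 to -0.20, and the clusters from -0.45 to 0.0027.

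The coat and lipase genes other than Lpl, Abhd5 and Mgll were lower in CPM in the megakaryocyte-like than in the HSC-like cluster. The median megakaryocyte-like cell had 34185 molecules in vehicle and 31613 in DFO, and the median HSC-like cell 22471.5 and 22173. A lower CPM here therefore does not mean fewer molecules per cell. Of the 7 members at or above the minimum, 5 were lower by 0.25 log2 or more in both libraries (Plin2, Plin3, Pnpla2, Lipe and Lipa), where 19% of all 8886 genes were. Lpl was higher by that much in both libraries, 1 of 7, where 19.4% of all genes were. The median difference of the 7 was -0.46 in vehicle and -0.37 in DFO, and that of all genes was 0.024 and 0.039. For Plin2 the count depends on the clustering: its difference was -0.35 in vehicle and -0.32 in DFO, but -0.18 and -0.19 at resolution 0.25, -0.24 in vehicle at resolution 1.0 and -0.23 in DFO with another seed.

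Plin2 was highest in cluster 4, at 47.3 CPM in vehicle and at 45.5 CPM in DFO. The erythroid-like cluster, at 41.3 and 40.8 CPM, and the HSC-like cluster, at 40.4 and 38.1 CPM, did not differ beyond their intervals. Plin2 was at 33.1 and 34.2 CPM in cluster 0 and at 31.5 and 30.4 CPM in the megakaryocyte-like cluster. The shallow cells of cluster 5 were far below all others, at 10.7 and 8.61 CPM. The low depth and high mitochondrial share of these cells moved with the low Plin2 level, and their part in it was not tested.

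Plin3 had another order from Plin2. It was highest in the HSC-like cluster, at 30.4 CPM in vehicle and at 30.5 CPM in DFO, with intervals apart from cluster 0 at 25.5 and 23.7 CPM. Cluster 4 and the erythroid-like cluster lay between 22.0 and 23.7 CPM in both libraries. The megakaryocyte-like cluster, at 18.6 and 17.2 CPM, and cluster 5, at 16.7 and 17.9 CPM, were lowest and not apart from each other. The difference of Plin3 between the megakaryocyte-like and HSC-like clusters was -0.68 in vehicle and -0.79 in DFO.

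Pnpla2 was likewise highest in the HSC-like cluster, at 75.1 CPM in vehicle and at 73.5 CPM in DFO. The erythroid-like cluster had 70.7 and 61.9 CPM, and cluster 0 had 61.9 and 61.0 CPM. The megakaryocyte-like cluster, at 54.5 and 52.8 CPM, and cluster 4, at 52.6 and 51.9 CPM, did not differ beyond their intervals. Cluster 5 was lowest at 42.7 and 39.8 CPM. Pnpla2 was lower in DFO in 6 of 6 clusters, by 0.019 to 0.19 on the log2 scale, and the level intervals overlapped in each. The counting interval of the ratio left out 0 in the erythroid-like cluster alone (-0.34 to -0.047).

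Its coactivator Abhd5 ran the other way between the HSC-like and the megakaryocyte-like cluster, though not over all clusters. The erythroid-like cluster was second highest and cluster 5 lowest for both genes. Abhd5 was highest in the megakaryocyte-like cluster, at 12.1 CPM (11.4 to 12.9) in vehicle and 12.3 CPM (11.4 to 13.1) in DFO, and stood at 9.24 and 10.2 CPM in the HSC-like cluster. The difference between these clusters was 0.36 in vehicle and 0.247 in DFO, just inside the fold. Abhd5 was higher in DFO in 6 of 6 clusters, by 0.014 to 0.36, again with overlapping level intervals. The counting interval of the ratio lay above 0 in cluster 0 (0.011 to 0.28) and cluster 4 (0.050 to 0.77) alone. In CPM the megakaryocyte-like cells thus had less Pnpla2 and more Abhd5 transcript than the HSC-like cells in both libraries. Per cell Pnpla2 was not lower, with 4276 molecules in 2021 megakaryocyte-like and 3935 in 2286 HSC-like vehicle cells. In DFO these were 3514 molecules in 1925 cells and 4691 in 2817.

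Lipe and Lipa, the hormone-sensitive and the lysosomal lipase, were both low in the megakaryocyte-like cluster. Lipe was at 3.81 CPM in vehicle and at 4.11 CPM in DFO there, against 6.11 and 5.59 CPM in the HSC-like cluster and 7.89 and 6.76 CPM in cluster 4, its highest. Lipa was at 8.66 and 9.19 CPM in the megakaryocyte-like cluster against 16.2 and 16.0 CPM in the HSC-like one, a difference of -0.83 in vehicle and -0.74 in DFO. In the other clusters Lipa lay between 13.4 and 16.0 CPM. In cluster 0 Lipa was at 15.3 CPM (14.5 to 16.1) in vehicle and 13.4 CPM (12.8 to 14.1) in DFO. Of the 6 clusters this was the only pair of Lipa levels whose intervals were apart. In the finer clustering (resolution 1.0) Lipa was at 19.7 CPM (17.8 to 21.8) in vehicle cells of 1 HSC-like cluster and at 14.8 CPM (13.4 to 16.4) in DFO cells, a difference of -0.39, with intervals apart. This cluster was not chosen in advance. It is 1 of many there, other HSC-like clusters among them. In the HSC-like cluster of the main clustering the difference of Lipa between the libraries was -0.018.

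Mgll and Faah, both below the level minimum, also differed along the lineages. Mgll was at 1.41 CPM in the megakaryocyte-like cluster of both libraries, and at 0.535 CPM in vehicle and at 0.470 CPM in DFO in the HSC-like cluster. These rest on 111 and 94 molecules in the first and 28 and 30 in the second, and the intervals were apart in both libraries. Faah was at 2.55 and 3.14 CPM in the megakaryocyte-like cluster and 3.99 and 3.92 CPM in the HSC-like cluster. These level intervals of Faah were apart in vehicle and overlapped in DFO, where the difference was -0.248, inside the fold. The highest level of Faah was in the shallow cluster 5, at 5.97 and 5.58 CPM, with intervals that overlap those of the HSC-like cluster.

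For the 3 members averaging at least 20 CPM, the most alike genes over the 12 sums by cluster and library were sought among 5489 genes, by Pearson correlation of log2(CPM + 1). Sums of a library share cells' depth and processing, and the correlations are descriptions. For Plin2 they were Mrpl24 (0.993), Skap2 (0.992) and Decr1 (0.991). Those for Plin3 were Epsti1 (0.9496), Ethe1 (0.949) and Rtn4 (0.947), and those for Pnpla2 were 2610524H06Rik (0.981) and Hes6 (0.970). Without the shallow cluster, over 10 sums, the lists were mostly others: Card19 (0.985), Mrpl24 (0.973) and Msrb1 (0.955) for Plin2, Sesn1 (0.973), Pla2g16 (0.964) and Zfp787 (0.963) for Plin3, and Ttc3 (0.969), Eif4b (0.966) and 2610524H06Rik (0.958) for Pnpla2. The SD of Plin2 over the sums was 0.76 with that cluster and 0.22 without it.

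Other genes of lipid storage were close to level between the libraries as well. Of 113 listed genes 88 were in the tables, and 59 of them averaged at least 5 CPM. Of these 59, 2 were lower in DFO past the fold, Agpat3 and Vldlr, which is 3.39% against 2.58% of all genes, and 0 were higher, against 1.4%. The median of the 59 was -0.0061, with 27 higher and 32 lower.

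Agpat3, an acyltransferase of phospholipid and triglyceride synthesis, was at 34.7 CPM in vehicle and at 25.4 CPM in DFO, a difference of -0.43. It was at 66.2 and 44.6 CPM in the megakaryocyte-like cluster (-0.56) and at 21.9 and 20.6 CPM in the HSC-like cluster (-0.087). Vldlr, the very low density lipoprotein receptor, which takes up lipoproteins alongside Lpl, was at 18.4 CPM in vehicle and at 14.8 CPM in DFO, a difference of -0.30. In the megakaryocyte-like cluster Vldlr was at 26.2 and 19.8 CPM (-0.39), and in the HSC-like cluster at 13.8 and 12.7 CPM (-0.11). Agpat3, Vldlr and Lpl all had a higher level in the megakaryocyte-like than in the HSC-like cluster in both libraries. Megakaryocyte markers moved with them, since in that cluster their sum was 5729 CPM in vehicle against 3388 CPM in DFO. The part this has in the values of the 3 genes was not tested.

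Among the 12 other coat and droplet biogenesis genes at 5 CPM or more, 6 were higher and 6 lower. Hilpda, which encodes a small droplet protein that inhibits adipose triglyceride lipase and is a known target of hypoxia-inducible factors, was at 34.0 CPM (33.3 to 34.7) in vehicle and 38.0 CPM (37.3 to 38.7) in DFO, a difference of 0.16. Hilpda was higher in DFO in 6 of 6 clusters, by 0.088 to 0.24. The intervals were apart in clusters 0 and 2, and no difference reached the fold of 0.25. Spg20 had a difference of 0.10, Hsd17b11 of -0.10 and Snx14 of -0.15.

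Over all cells, no gene of the remaining lists averaging at least 5 CPM passed the fold, apart from Agpat3 and Vldlr. Among 9 lipolysis inhibitors and other neutral lipid hydrolases, Abhd6, a monoacylglycerol hydrolase, was highest at 0.23 (4.94 CPM in vehicle, 5.95 CPM in DFO), and Pnpla8 (-0.13) and Pnpla6 (-0.077) were lowest. Within clusters Abhd6 was higher in DFO past the fold, with intervals apart, in the megakaryocyte-like cluster (2.03 and 3.24 CPM, 0.49) and in cluster 4 (3.03 and 5.28 CPM, 0.64). Of 13 genes of triglyceride and sterol ester synthesis, Agpat2 (0.13) and Gpat4 (0.12) were highest and Agpat3 and Acsl5 (-0.24) lowest. Among 9 genes of Lpl partners and lipid uptake, Slc27a1 (0.16) and Fabp5 (0.081) were highest and Vldlr lowest. The Lpl partners Lmf1, which folds the enzyme, and Angptl4, which inhibits it, were picked after their values were seen. They differed by -0.0047 and 0.020. The 11 lysosomal genes had a median of -0.051, with Npc1 (0.13) and Psap (0.075) highest and Smpd1 (-0.19) and Lamp2 (-0.13) lowest. Of 4 endocannabinoid genes Abhd6 and Abhd12 (0.015) were highest and Gde1 (-0.12) and Daglb (-0.025) lowest. The 5 regulators ran from Nr1h2 (-0.047) and Ppard (-0.029) to Foxo1 (0.030) and Sirt1 (0.078).

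**Figure D5:**
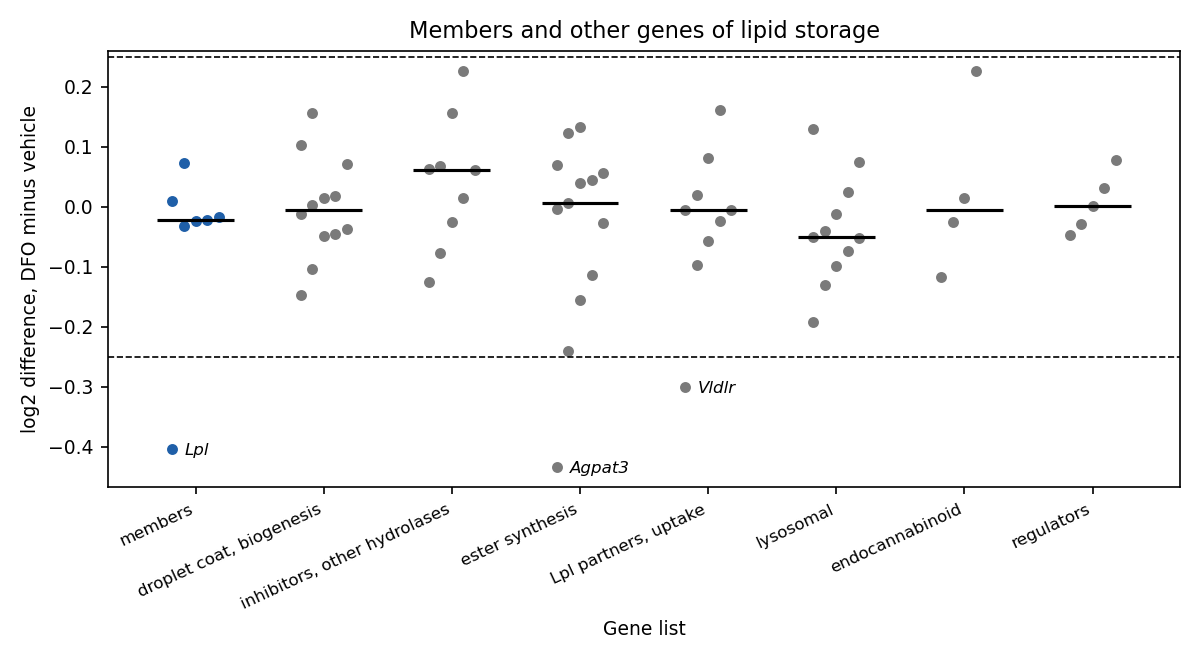
Difference between the libraries (log2, DFO minus vehicle) of the 7 members averaging at least 5 CPM (blue) and of the other lipid genes at that level (grey) by list, with a bar at each median and dashed lines at 0.25 and -0.25. Lpl (-0.40), Agpat3 (-0.43) and Vldlr (-0.30) are the points past a line, and a gene in several lists is drawn in each.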

How the data were processed

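The authors deposited 1 table of genes by cells for each library, in natural log values, a unit read from the values. Per the submitters' processing notes, reads passed through FastQC 0.11.9, Trim Galore 0.6.5 and Cell Ranger 3.0.2 on the mm10 build. The deposited values resolved into whole molecules (100% of nonzero values within 0.05 of a whole number), which were summed per library or cluster and scaled to CPM. All deposited cells were used. No count model was run, since each group is 1 library. The tools were scanpy 1.11.5, leidenalg 0.10.2, scipy 1.17.1, numpy 2.4.6, pandas 2.3.3 and matplotlib 3.10.9 in Python 3.11.15. The computation was tested on simulated data.

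Cells were scaled to 10000, log-transformed and clustered on 2000 variable genes (30 principal components, 15 neighbours, Leiden resolution 0.5, seed 0, no integration). Members, other lipid genes, cell cycle, sex-specific, mitochondrial and ribosomal protein genes were left out. Sex-specific genes were left out after a first run had split clusters by sex. A name needed at least 3 detected markers, at least 1 among the 10 leading genes, and a positive mean fold. Doublets were not called, and leaving out cells with transcripts of both sexes was an alternative. A cell's sex was read from Xist (female from 5 molecules, male up to 1) and from 4 Y-linked genes (none in female, at least 2 molecules in male cells).

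The text describes all 9 members, the 2 highest and 2 lowest genes of each lipid list, and the 3 genes most alike to each member averaging at least 20 CPM. Of the genes this rule selects, 2 are not reported here. The members and lists were chosen with earlier results of these data known. Alternatives changed the weighting of cells, scaling, pseudocount, cell filter, depth, cluster shares, sex, clustering and level minimum.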

Additional observations from a re-analysis of the deposited data

How the results depend on the processing

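Lpl was lower in DFO, and Abhd5 and Faah higher, under every setting run, while Plin2, Plin3, Pnpla2, Lipe, Mgll and Lipa, all inside the fold, took both signs. No difference of a member between the megakaryocyte-like and HSC-like clusters turned direction under the clustering and depth settings run. The difference in Lpl was -0.21 with 10 CPM added in place of 1, -0.20 with equal cluster shares and -0.53 in male cells only. Both of the first values are inside the fold of 0.25. Added CPM shrink the differences of genes at this level by construction, and the cause of the others was not tested. The difference of Lpl between the megakaryocyte-like and HSC-like clusters was 2.38 in vehicle and 2.32 in DFO at resolution 1.0, and 2.44 and 2.39 in thinned cells, against 2.10 and 1.97. The 2 lipid genes lower in DFO became 0 at a fold of 0.5 and 1 at a minimum of 20 CPM, where fewer genes enter. Over all settings Plin2 ranged from -0.045 to 0.0083, Plin3 from -0.061 to 0.044, Pnpla2 from -0.041 to 0.0049, Lipe from -0.11 to 0.011, Abhd5 from 0.029 to 0.14, Mgll from -0.14 to 0.11, Lipa from -0.093 to 0.0040 and Faah from 0.025 to 0.19. Leaving out the shallow cluster was chosen after seeing the data. Mgll rests on 210 molecules in each library, which limits its precision. In thinned cells Lipe was at -0.11 and Plin3 at 0.044. No paired analysis was possible because each group is 1 library, and for the same reason no replicate could be left out.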

Other observations

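Several lipid genes below or near the level minimum had separate counting intervals in the libraries, and were picked after their values were seen. Pparg, a nuclear receptor that drives lipid storage genes, had 257 molecules in vehicle and 128 in DFO, or 0.985 and 0.450 CPM. Its difference was -0.45. In the megakaryocyte-like cluster Pparg was at 2.67 CPM (2.33 to 3.06) in vehicle and 1.37 CPM (1.10 to 1.68) in DFO. The HSC-like cluster had 6 and 10 molecules of it. Cnr2, the cannabinoid receptor of immune cells, was at 2.12 CPM in vehicle and at 1.38 CPM in DFO, a difference of -0.39. Dgat1, which takes the last step of triglyceride synthesis, was at 6.19 and 5.46 CPM, a difference of -0.16. Soat2 was also lower in DFO, at 1.07 and 0.735 CPM (-0.251), and Ces2g at 4.21 and 3.54 CPM (-0.20). Pparg, Cnr2 and Soat2 thus differed by more than 0.25 but lay below the level minimum. Ptgs2, which encodes cyclooxygenase 2, was higher, with 114 molecules in vehicle and 198 in DFO, or 0.437 and 0.696 CPM.

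One vehicle cell of the HSC-like cluster held 20 Plin2 molecules among 10383 molecules and 2590 genes. The next highest cell of either library had 10.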
